A study of Homo sapiens with 12 samples.

Results

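The 10 genes described here encode KAT5 (TIP60) and 9 core subunits of the NuA4/TIP60 complex: TRRAP, EP400, ING3, EPC1, EPC2, BRD8, DMAP1, MEAF6 and MORF4L1. They were taken by symbol, matched through NCBI gene IDs, from 20433 genes with a value in at least 1 library, and all 10 were found in all 12 libraries. The cells were H1975, an established human non-small cell lung cancer line with a mutant EGFR. Every library, controls included, came from cells that carried a Tet-inducible hairpin and received 0.5 µg/ml doxycycline for 2 days. The labels give the genotype of the control hairpin group as WT and that of the groups sh-A, sh-B and sh-C as KAT5 knockdown, with 3 libraries per group. In the design text the derivatives set against the control are sh-B (shTIP60-1) and sh-C (shTIP60-2). The hairpin sh-A is known only from the titles and from a comparison table of its own. The labels do not say that the libraries of a group were separate cultures, so the p-values below measure the spread between these libraries, which may be technical. Neither do they say whether a hairpin line is 1 clone or a pool.

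NuA4/TIP60 acetylates the tails of histones H4 and H2A and the histone variant H2A.Z. It also carries an ATPase, EP400, that exchanges H2A for H2A.Z in nucleosomes. KAT5 is the catalytic subunit. It works in a small module with an EPC scaffold, ING3 and MEAF6, and TRRAP connects the complex to DNA-bound activators such as MYC and p53. The complex is known for its part in transcription and in the response to DNA double-strand breaks. The question for this set of genes was how far each hairpin lowered KAT5 and whether the transcripts of its partner subunits changed with it.

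Expected counts summed to between 15631504 and 28073366 per library, and those of the 10 genes ran from 124 to 8584, so all 10 passed the filter on low counts. Levels below are CPM, counts relative to the TMM-scaled library total, or FPKM where genes are compared with each other, since FPKM is scaled per transcript length. A gene was called at a Benjamini-Hochberg adjusted p below 0.05 in edgeR's quasi-likelihood test, over 15592 genes, for each comparison separately. Libraries sh-A 3, sh-B 3 and sh-C 1 were each the farthest of their hairpin group from the mean of their mates. They are the 3 said below to stand apart. Their root mean square log2 distances were 0.504, 0.312 and 0.24, against 0.286 and 0.306, 0.194 and 0.205, and 0.192 and 0.173 for the mates. The value of a mate includes the farthest library, and in any group of 3 some library is the farthest. The distance of sh-C 1 was below those of sh-A 4 and sh-A 5. A set of 118 genes, chosen for being found almost only with sh-A, summed to 2150, 388 and 396 CPM in sh-A 3, 4 and 5 and to 2.38 to 4.1 CPM in the 9 other libraries. All 7 epithelial markers were detected in every library and summed to 5080 to 5370 CPM with the control, 3090 to 3380 with sh-A, 4150 to 4470 with sh-B and 5380 to 5720 with sh-C. Of 6 leukocyte markers, 5 were listed, and their sum of 69.0 to 186 CPM was mostly CD68. PTPRC, the defining leukocyte marker, was at 0.66 to 2.18 CPM. Fibroblast markers summed to 14.2 to 25.3 CPM and endothelial markers to 1.46 to 14.8 CPM.

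KAT5 fell with every hairpin, in the order sh-A, sh-B and sh-C, and the 4 groups did not overlap. Control libraries 1, 2 and 3 held 31.76, 27.55 and 27.45 CPM of it. Libraries sh-A 3, 4 and 5 held 19.51, 19.96 and 18.73 CPM, and libraries sh-B 3, 4 and 5 held 14.65, 13.44 and 12.69 CPM. The lowest values, 8.24, 7.3 and 8.21 CPM, were those of sh-C 1, 2 and 3. With sh-A, 67.0% of the control level remained (95% interval 58.3 to 77.1), a log2 change of -0.58 (SE 0.09, edgeR adjusted p = 0.00091). For sh-B the remaining share was 47.0% (40.7 to 54.2) and the log2 change -1.09 (SE 0.09, edgeR adjusted p = 1.1e-05). For sh-C the share was 27.3% (23.6 to 31.7) and the log2 change -1.87 (SE 0.10, edgeR adjusted p = 1.6e-06). The differences between hairpins also passed the test. KAT5 was lower with sh-B than with sh-A by a log2 difference of -0.51 (SE 0.09, edgeR adjusted p = 0.00079) and lower with sh-C than with sh-B by -0.78 (SE 0.10, adjusted p = 0.00014). Between sh-C and sh-A the difference was -1.29 (SE 0.10, edgeR adjusted p = 3.1e-06). In bulk RNA, fewer cells that express a gene and less RNA per cell cannot be told apart, so these values do not say whether all cells lost KAT5 transcript to a like degree.

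**Figure D1:**
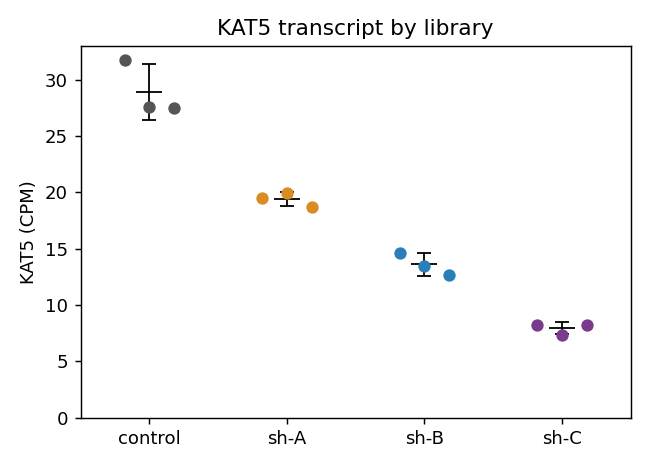
KAT5 in CPM (vertical axis) in each of the 12 libraries, by group (horizontal axis); points are libraries, and the long line and bars are the group mean and SD (n = 3). The groups sit at 28.9 ± 2.46, 19.4 ± 0.626, 13.6 ± 0.988 and 7.92 ± 0.535 CPM and do not overlap.

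The fall of KAT5 was not the largest in the transcriptome with any hairpin. A larger fall was fitted for 1284 genes with sh-A, for 935 with sh-B and for 107 with sh-C. Of the genes that fell, 450 had a smaller p than KAT5 with sh-A, 77 with sh-B and 0 with sh-C. The length that the files give for KAT5, a mean over its 4 listed transcripts weighted by abundance, was 2144 to 2174 bases with the control and 2115 to 2180 bases with the hairpins. Those values do not resolve which transcript was lowered. RNASEH2C, which encodes a subunit of ribonuclease H2, overlaps KAT5 in RefSeq, and nothing in the library protocol marks strand. RNASEH2C was called higher with sh-B, by 0.32 (SE 0.10, edgeR adjusted p = 0.028), and leaving out any 1 of the 6 libraries lost that call, at up to 0.10. It was not called with sh-A (-0.27, adjusted p = 0.066) or sh-C (0.08, adjusted p = 0.63), and without sh-A 3 its difference with sh-A passed the threshold.

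Per transcript length, KAT5 moved from among the higher members to the lowest. With the control, mean FPKM ran from 135 ± 12.7 (SD, n = 3) for MORF4L1, a chromodomain subunit, and 34.5 ± 0.943 for BRD8, a bromodomain subunit, to 4.71 ± 0.391 for DMAP1 and 4.56 ± 0.241 for EPC1. KAT5 at 13.5 ± 1.16 and TRRAP at 13.1 ± 0.446 overlapped, as did ING3 (10.7) with EPC2 (10.5) and DMAP1 with EPC1. MEAF6 at 11.8 ± 0.56 and EP400 at 8.86 ± 0.317 overlapped neither of their neighbours in this order. MORF4L1 and BRD8 kept the first and second place in all 4 groups. KAT5 had rank 3 of 10 with the control at 13.5 FPKM, rank 8 with sh-A (9.42 ± 0.309) and sh-B (6.29 ± 0.284) and rank 10 with sh-C (3.54 ± 0.269).

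**Figure D2:**
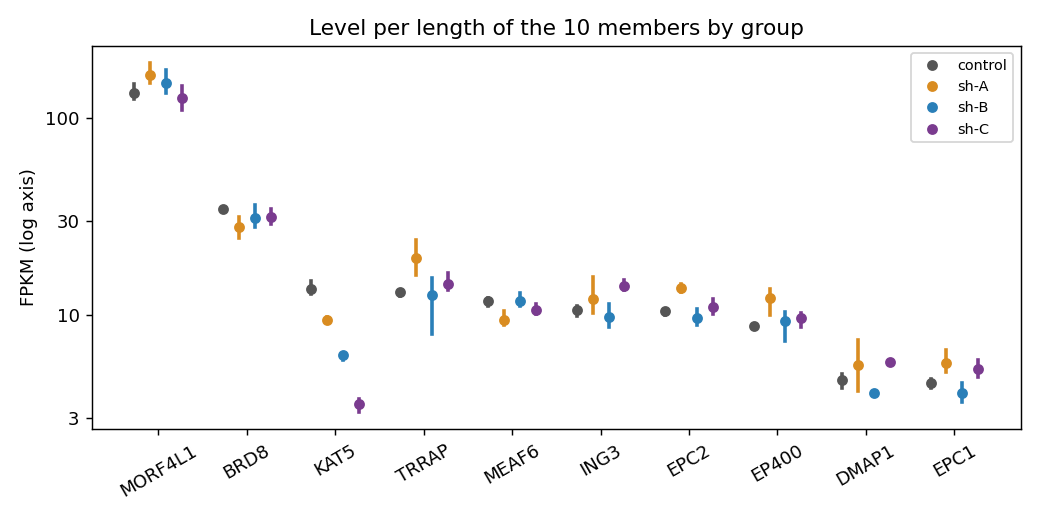
Mean level in FPKM (vertical axis, log scale) of the 10 genes (horizontal axis, in the order of the control) in the 4 groups; points are group means and bars run from the lowest to the highest of 3 libraries. KAT5 steps down from 13.5 to 3.54 FPKM, while MORF4L1 and BRD8 stay highest in every group.

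KAT5 was also lower relative to its partners in every hairpin library. It made up 4.89 to 6.13% of the summed FPKM of the 10 genes in the control libraries, 2.92 to 3.7% with sh-A, 2.32 to 2.77% with sh-B and 1.41 to 1.73% with sh-C. The FPKM ratio of KAT5 to EP400 was 1.42 to 1.65 in the control libraries, 0.682 to 0.973 with sh-A, 0.575 to 0.878 with sh-B and 0.365 to 0.370 with sh-C. All 9 libraries with a KAT5 hairpin thus held less KAT5 than EP400 transcript per length, and all 3 control libraries more. These are ratios of RNA, and protein was not measured in these files.

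With all 12 libraries in the fit, none of the other 9 subunits was called lower with sh-B or sh-C, the hairpins that left the least KAT5. With sh-A, 2 of 9 were called higher (EP400, EPC2) and 1 lower (MEAF6), in a comparison that called 26.7% of all genes (14.4% higher, 12.3% lower), and 5 of 9 had an unadjusted p below 0.05. With sh-B, 0 of 9 were called in edgeR or in DESeq2, where edgeR called 30.1% of all genes (15.0% higher, 15.0% lower), and 0 had an unadjusted p below 0.05. With sh-C, 0 of 9 were called in edgeR or in DESeq2, where edgeR called 17.0% of all genes (9.79% higher, 7.16% lower), and 2 had an unadjusted p below 0.05 (ING3, EPC1). The median log2 change of all 10 genes was 0.22 with sh-A, -0.08 with sh-B and 0.18 with sh-C, beside medians of 0.02, 0.00 and 0.00 over all genes tested. The 95% intervals of the 9 partner subunits together spanned -0.60 to 0.54 (log2) for sh-B and -0.36 to 0.83 for sh-C. A fall larger than 1.52-fold with sh-B, or than 1.28-fold with sh-C, thus lay outside the interval of every partner subunit, while smaller changes were not resolved at this replication. When sh-B and sh-C were averaged against the control, KAT5 fell by 1.48 on the log2 scale (SE 0.08, edgeR adjusted p = 9.7e-07), and 0 of 9 partners were called, where 24.9% of all genes were called (12.4% higher, 12.5% lower). There, 0 of 9 had an unadjusted p below 0.05 and DESeq2 also called 0. These counts changed without the 3 libraries that stood apart. Each was the farthest from its mates in its hairpin group, and no control library was dropped, so the choice itself lowers the spread within groups. More calls and smaller p-values are thus expected from it, here and below, and are no separate support. Without those 3 the comparisons called 46.0%, 47.0% and 42.8% of all genes for the 3 hairpins in the order A, B, C, and 6, 5 and 4 of the 10 genes, KAT5 among them each time. Those calls were BRD8 and MEAF6 lower and TRRAP, EP400 and EPC2 higher with sh-A, BRD8, ING3, EPC1 and EPC2 lower with sh-B, and ING3, EPC1 and DMAP1 higher with sh-C. For sh-B and sh-C averaged, 45.4% of all genes and 2 of the 10 (KAT5, BRD8) were then called.

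**Figure D3:**
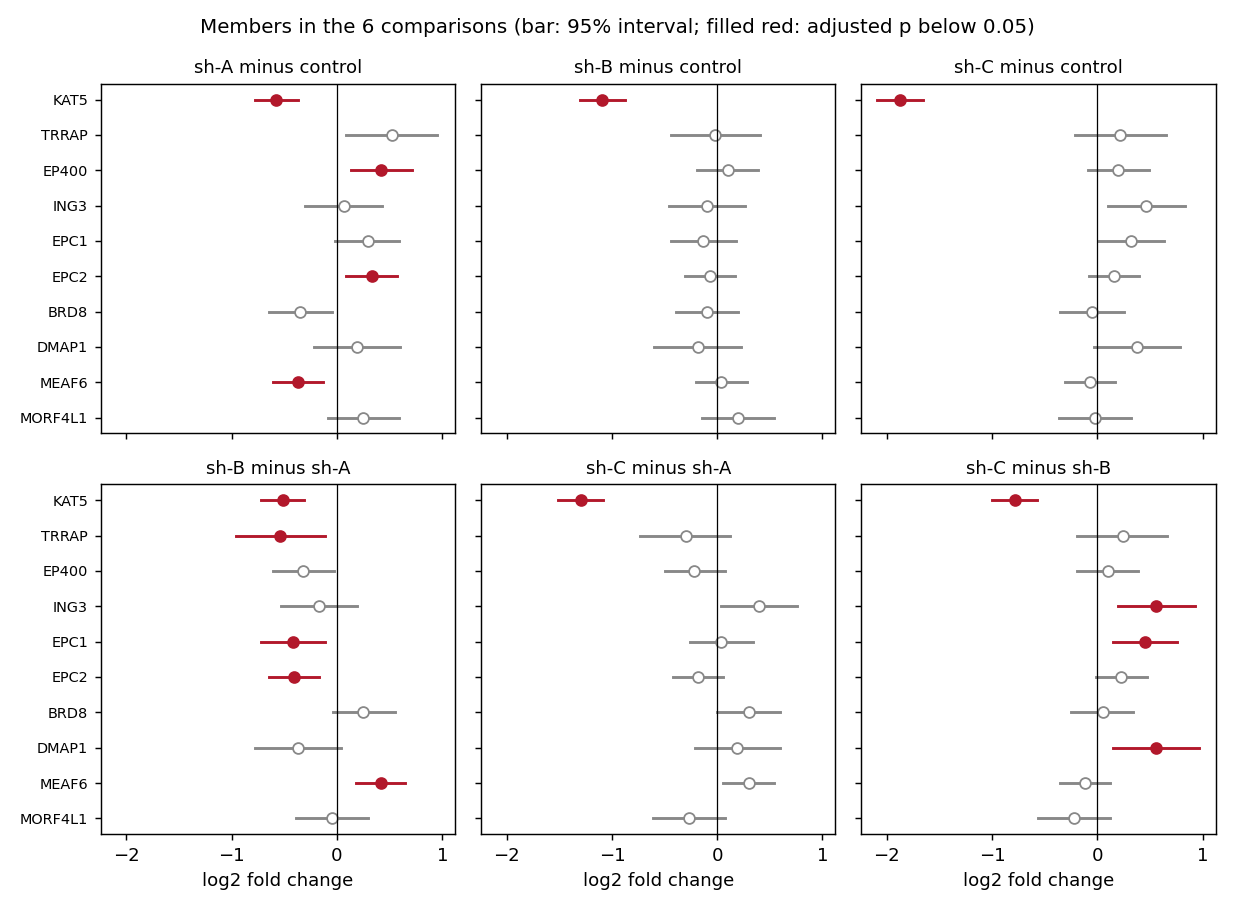
Fitted log2 fold change (horizontal axis) of the 10 genes (vertical axis) in the 6 pairwise comparisons of groups; points are estimates, bars 95% intervals, and filled red marks an adjusted p below 0.05 in edgeR. KAT5 is lower in all 6 panels, and none of the other genes is marked in the panels of sh-B or sh-C against the control.

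TRRAP is a very large pseudokinase that binds activators and is shared with the SAGA coactivator. Its values were 168.65, 161.43 and 167.4 CPM with the control, 232.37, 191.29 and 289.75 CPM with sh-A, 108.81, 194.64 and 188.14 CPM with sh-B, and 183.86, 178.23 and 216.74 CPM with sh-C, here and below in the order of the library numbers. All sh-A and sh-C libraries lay above the controls, whereas sh-B 3 lay below every other library and its mates above the controls. The log2 difference of sh-A from control was 0.52 (SE 0.20, edgeR adjusted p = 0.07), which missed the threshold and passed it in DESeq2 (adjusted p = 0.039), with only the sh-A and control groups in the fit (0.041), without sh-A 4 (0.042) and without the 3 libraries that stood apart (0.0032). The differences were -0.02 with sh-B (adjusted p = 0.97) and 0.22 with sh-C (adjusted p = 0.48). Without sh-B 3 the difference for sh-B became 0.21.

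EP400, the SWI/SNF-type ATPase of the complex, was 1 of the 2 partners called higher with sh-A. It stood at 111.97, 106.59 and 110.77 CPM with the control, 163.04, 117.55 and 158.93 CPM with sh-A, 97.8, 126.2 and 128.87 CPM with sh-B, and 131.98, 113.88 and 132.98 CPM with sh-C. The sh-A and sh-C libraries were above all controls, and the sh-B libraries lay on both sides of them. EP400 rose with sh-A by 0.42 (SE 0.13, edgeR adjusted p = 0.036). That call was lost without any 1 of the control libraries, sh-A 3 or sh-A 5, at an adjusted p of up to 0.12, and with only the 2 groups in the fit (0.056). The differences were 0.10 with sh-B (adjusted p = 0.62) and 0.20 with sh-C (adjusted p = 0.32). The expected counts of EP400 were fractional, so part of its reads were shared out by the estimate. A gene of related name, EP400NL, had 77.79 to 169.68 counts per library, against 1659.97 to 4251.54 for EP400, and was called with no hairpin. How much sequence it shares with EP400 was not measured.

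In the catalytic module, EPC1 and EPC2 are alternative scaffolds related to Drosophila Enhancer of Polycomb, and they hold KAT5 to the rest of the complex. EPC2 was the more abundant in every library, at 1.83 to 2.59 times the FPKM of EPC1. Both were at their highest mean with sh-A or sh-C and at their lowest with sh-B. For both, the difference between sh-B and sh-A passed the test. A promoter window of EPC1 and that of EPC2 share a stretch of 26 identical bases just after an annotated start. It is shown here with the corresponding bases of BRD8 and MEAF6, the remaining subunits whose windows hold the same short motif.

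EPC1: taatgtccGCCATGTTGgccatggcg
EPC2: taatgtccGCCATGTTGgccatggcg
BRD8: ttcccgtcGCCATCTTGgccccgaag
MEAF6: tgtgcatcGCCATGTTGggctgaggc

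Each is read 5′ to 3′ on the strand of the motif, with the letters GCCATNTTG in capitals, a form of the motif known for the factor YY1. The sequences are from RefSeq (GRCh38.p14), a later build than the hg19 named for the expression files. Those of EPC1 and EPC2 lie at chr10:32347121-32347146 (minus strand, 13 to 38 bases after an EPC1 start) and chr2:148644753-148644778 (plus strand, 3 to 28 bases after the EPC2 start). Those of BRD8 and MEAF6 lie at chr5:138178602-138178627 (plus strand, BRD8 being on the minus strand) and chr1:37514734-37514759 (plus strand, MEAF6 being on the minus strand). EPC1 has another promoter window, at chr10:32378720-32379019, which held no match to GCCATNTTG and so not the shared stretch. The 26-base stretch of the EPC genes was found in 3 of 35116 RefSeq promoter windows of 300 bases, those of EPC1, EPC2 and the antisense RNA EPC1-AS1, searched on both strands. GCCATNTTG was in 4 of the 9 windows of 8 members and in 2.92% of all windows, on either strand. The matches of EPC1 and EPC2 lie in their shared stretch and are not separate occurrences. Also searched were an ETS-family motif, CCGGAAGT, in 2 of the 9 windows and 4.14% of all, and an E-box, CACGTG, in 1 of the 9 and 7.26%. A match of letters is a description of these windows and not a site of binding. TRRAP and ING3 had no window to search.

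EPC2 measured 38.95, 39.23 and 35.92 CPM with the control, 51.83, 44.98 and 46.95 CPM with sh-A, 41.96, 33.93 and 32.69 CPM with sh-B, and 47.56, 38.6 and 41.14 CPM with sh-C. All sh-A libraries were above all control and sh-B libraries, while sh-B and sh-C overlapped the control. EPC2 rose with sh-A by 0.33 (SE 0.11, edgeR adjusted p = 0.041). Leaving out any 1 of the 6 libraries compared lost the call, at up to 0.14. It was lower with sh-B than with sh-A by -0.41 (SE 0.11, edgeR adjusted p = 0.009), which held in all 14 alternative analyses of that comparison. Against the control, the differences were -0.07 with sh-B (adjusted p = 0.67, and 0.04 without the 3 libraries that stood apart) and 0.16 with sh-C (adjusted p = 0.35).

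EPC1 measured 17.47, 19.65 and 18.42 CPM with the control, 26.94, 19.82 and 20.86 CPM with sh-A, 19.99, 14.68 and 16.12 CPM with sh-B, and 23.19, 20.93 and 25.39 CPM with sh-C. The sh-C libraries were above all control and sh-B libraries, the sh-A libraries were above the controls, and sh-B 3 was within the range of sh-A. Against the control, EPC1 passed the threshold with no hairpin in the fit of all 12 libraries, at 0.29 with sh-A (SE 0.14, edgeR adjusted p = 0.15), -0.13 with sh-B (adjusted p = 0.54) and 0.32 with sh-C (adjusted p = 0.13). With sh-C it passed with only the 2 groups in the fit (0.026). It passed higher with sh-C (0.32, adjusted p = 0.013) and lower with sh-B (-0.26, adjusted p = 0.043) without the 3 libraries that stood apart. In the fit of all libraries it was lower with sh-B than with sh-A by -0.42 (SE 0.14, edgeR adjusted p = 0.027) and higher with sh-C than with sh-B by 0.45 (SE 0.14, adjusted p = 0.03). The first of these was lost (adjusted p up to 0.11) when sh-A 3, sh-B 4 or sh-B 5 was left out, and with only the 2 groups in the fit (0.092). The second was lost when sh-B 4, sh-B 5, sh-C 1 or sh-C 3 was left out, at up to 0.13.

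ING3 carries a PHD finger that reads methylated lysine 4 of histone H3. It measured 22.87, 24.4 and 20.92 CPM with the control, 30.31, 20.55 and 20.48 CPM with sh-A, 26.05, 18.33 and 19.24 CPM with sh-B, and 34.48, 29.97 and 29.54 CPM with sh-C. The sh-C libraries were above all control and sh-B libraries, and in both sh-A and sh-B the library numbered 3 stood above its mates. The difference of sh-C from control was 0.46 (SE 0.17, edgeR adjusted p = 0.074). It missed the threshold in the fit of all 12 libraries and passed it with only the 2 groups in the fit (0.0046) and without the 3 libraries that stood apart (0.00099). The authors' deposited table for sh-C gives ING3 a log2 ratio of 0.46 and a PPEE, a probability whose definition the sources used here do not give, of 3.3e-06. ING3 was higher with sh-C than with sh-B by 0.56 (SE 0.17, edgeR adjusted p = 0.024). Leaving out any 1 of sh-B 4, sh-B 5 and sh-C 1 lost the call, at up to 0.10. With sh-A and sh-B the differences from control were 0.07 (adjusted p = 0.8) and -0.10 (adjusted p = 0.7), and the latter passed without the 3 libraries that stood apart (0.014).

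MEAF6, the small remaining component of the catalytic module, which the complex shares with other MYST acetyltransferases, was the only partner called lower with sh-A. It measured 53.89, 58.31 and 58.0 CPM with the control, 49.94, 40.71 and 40.67 CPM with sh-A, 66.99, 54.73 and 53.57 CPM with sh-B, and 58.74, 52.2 and 50.87 CPM with sh-C. All sh-A libraries were below all libraries of the other groups, and sh-B and sh-C overlapped the control. MEAF6 fell by 0.37 on the log2 scale with sh-A (SE 0.11, edgeR adjusted p = 0.025), and the call was lost without any 1 of control 2, control 3, sh-A 4 and sh-A 5, at up to 0.082. It was higher with sh-B than with sh-A by 0.42 (SE 0.11, edgeR adjusted p = 0.0077), which held in all 14 alternative analyses of that comparison. The differences from control were 0.04 with sh-B (adjusted p = 0.82) and -0.07 with sh-C (adjusted p = 0.69). Its expected counts were fractional and were spread over 6 listed transcripts.

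Among the reader and bridging subunits, BRD8, whose bromodomains bind acetylated lysines, was lowest with sh-A. It measured 102.6, 109.61 and 104.28 CPM with the control, 95.73, 80.39 and 71.99 CPM with sh-A, 119.48, 85.23 and 91.38 CPM with sh-B, and 115.1, 94.21 and 96.48 CPM with sh-C. The sh-A libraries were all below the controls, and sh-B 3 and sh-C 1 were above them while their mates were below. The difference of sh-A from control was -0.35 (SE 0.14, edgeR adjusted p = 0.078). It passed the threshold without sh-A 3 (0.019) and without the 3 libraries that stood apart, at -0.47 (SE 0.07, adjusted p = 6.4e-05). In that reduced set BRD8 also passed with sh-B (-0.25, adjusted p = 0.0057), against -0.10 (adjusted p = 0.64) with all libraries.

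DMAP1, a SANT-domain subunit that the complex shares with SRCAP, had the lowest counts of the 10 genes, from 124 to 292 per library. It measured 7.01, 7.96 and 8.18 CPM with the control, 11.99, 8.01 and 6.35 CPM with sh-A, 7.28, 6.68 and 6.41 CPM with sh-B, and 9.97, 10.0 and 10.13 CPM with sh-C. The sh-C libraries were close together and above all control and sh-B libraries, and the sh-A libraries spread over the range of all other groups. The difference of sh-C from control was 0.38 (SE 0.19, edgeR adjusted p = 0.18). It missed the threshold in the fit of all 12 libraries and passed it with only the 2 groups in the fit (0.022) and without the 3 libraries that stood apart (0.019). DMAP1 was higher with sh-C than with sh-B by 0.56 (SE 0.19, edgeR adjusted p = 0.042), and the call was lost without any 1 of the 6 libraries compared, at up to 0.12. With sh-A and sh-B the differences from control were 0.19 (adjusted p = 0.5) and -0.18 (adjusted p = 0.51).

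MORF4L1 (MRG15), whose chromodomain binds methylated lysine 36 of histone H3, was called in no comparison of all 12 libraries. It measured 245.81, 282.67 and 230.89 CPM with the control, 352.54, 281.34 and 267.51 CPM with sh-A, 353.59, 251.28 and 267.23 CPM with sh-B, and 294.59, 239.17 and 215.44 CPM with sh-C. Each hairpin group overlapped the control, and the first library of each hairpin group was its highest. The differences from control were 0.25 with sh-A (SE 0.16, edgeR adjusted p = 0.27), 0.20 with sh-B (adjusted p = 0.38) and -0.02 with sh-C (adjusted p = 0.95).

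**Figure D4:**
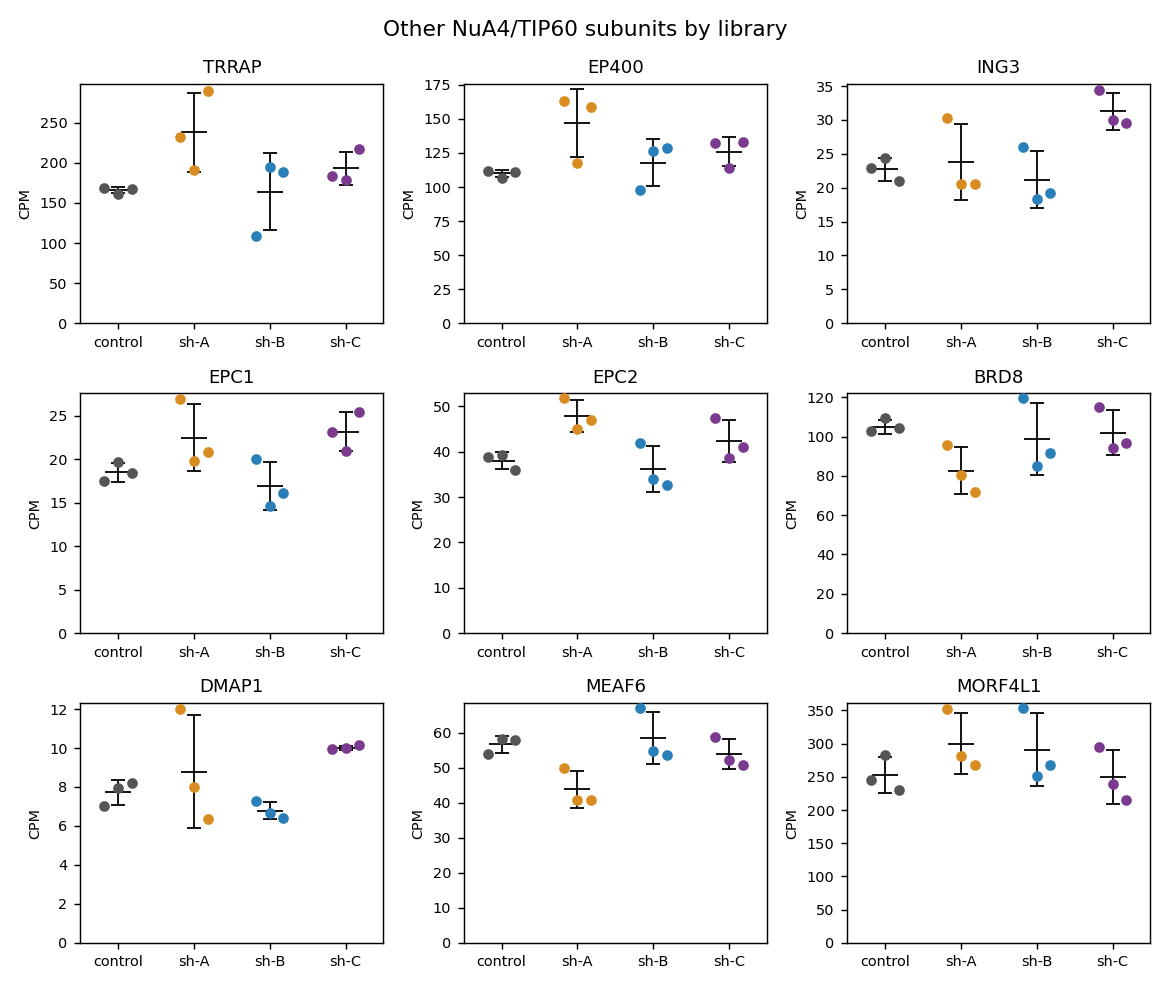
The 9 partner subunits in CPM (vertical axes, each from 0) in each of the 12 libraries, by group (horizontal axes); points are libraries in the order of their numbers, and the long line and bars are the group mean and SD (n = 3). In the sh-B panels the leftmost point, sh-B 3, is the lowest for TRRAP (108.81 CPM) and EP400 (97.8 CPM) and the highest for the other 7 genes.

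Most members were at their group's highest level in each of the 3 libraries that stood apart, and also in control 2. Library sh-A 3 was the highest of its group for 8 of the 10 genes, all but KAT5 and TRRAP. Library sh-B 3 was the highest of its group for 8 genes and the lowest for 2, TRRAP and EP400, which are also the genes with the longest transcripts of the set (12610 to 12625 and 12317 bases). Library sh-C 1 was the highest of its group for 6 genes, as was control 2, which was not among the 3. For KAT5 the spread within a group stayed small beside the steps between groups, with and without these libraries: -0.59, -1.15 and -1.90 for sh-A, sh-B and sh-C without them. Whether transcript length, RNA quality or handling had a part in these library differences was not tested.

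With all 12 libraries, the partner subunits that differed between hairpins did so between sh-B and the other 2. Between sh-B and sh-A, 1 of 9 partners was called higher with sh-B (MEAF6) and 3 lower (TRRAP, EPC1, EPC2), where 47.5% of all genes were called (22.2% higher, 25.3% lower). TRRAP differed by -0.54 (SE 0.20, edgeR adjusted p = 0.039), a call lost without sh-A 5 or sh-B 3, at up to 0.16, with only the 2 groups in the fit (0.13), without the 3 libraries that stood apart (0.057) and with the library number as a block (0.056). With that block, fitted on sh-A and sh-B alone, BRD8 passed the threshold, at 0.25 (SE 0.08, adjusted p = 0.038). Its adjusted p was 0.24 for the same 2 groups without the block and 0.15 with all 12 libraries. The block takes equal numbers as pairs, which the titles do not state. Between sh-C and sh-B, 3 of 9 partners were called higher with sh-C (ING3, EPC1, DMAP1) and 0 lower, where 27.9% of all genes were called (14.9% higher, 13.0% lower). Between sh-C and sh-A, 0 of 9 partners were called in edgeR, where 35.3% of all genes were called (17.4% higher, 17.9% lower). There, 3 had an unadjusted p below 0.05, and DESeq2 called MEAF6 (adjusted p = 0.049). Without the 3 libraries that stood apart, 7 of the 10 genes were called between sh-C and sh-A (52.2% of all genes), 5 between sh-B and sh-A (56.9%) and 5 between sh-C and sh-B (46.5%), KAT5 among them each time. Leaving out 1 library also brought calls, while the calls over all genes moved as well. Those ran from 4236 to 6726 between sh-C and sh-A (5502 with all 12 libraries) and from 6578 to 8057 between sh-B and sh-A (7410). Between sh-C and sh-B they ran from 2918 to 4668 (4344). Without sh-A 3, ING3, BRD8, DMAP1 and MEAF6 were called between sh-C and sh-A and BRD8 between sh-B and sh-A. Between sh-B and sh-A, EP400 was called without sh-A 4 and DMAP1 without sh-A 5, and between sh-C and sh-B, EPC2 was called without sh-B 3. Of 7 epithelial markers, 5 were called lower with sh-A, where 12.3% of all genes were. MUC1 (-1.22, edgeR adjusted p = 0.067) and KRT7 (-0.31, adjusted p = 0.15) missed the threshold. With sh-B, 3 of the 7 were called lower (15.0% of all genes), and with sh-C 1 was called lower (7.16%) and 1 higher (9.79%). The 118 genes found almost only with sh-A summed to 388 to 2150 CPM in its libraries. The part of these differences in the values of the 10 genes with sh-A was not tested.

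In the authors' deposited tables, a PPEE below 0.05 was given to 3 of the 10 genes with sh-A (KAT5, EPC2, MEAF6), to KAT5 with sh-B, and to 3 with sh-C (KAT5, ING3, EPC1). The share of all genes with such a PPEE was not counted, so these counts cannot be read as many or few. The authors' log2 ratios for KAT5 were -0.58, -1.09 and -1.86. EP400, which passed the edgeR test with sh-A, had a PPEE of 0.36 in the authors' deposited table.

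Of 10 remaining subunits of the complex, several of which it shares with other complexes (RUVBL1, RUVBL2, ACTL6A, ACTB, YEATS4, VPS72, MRGBP, MBTD1, JAZF1, MORF4L2), 1 was called higher and 0 lower with sh-A, 1 higher and 2 lower with sh-B, and 4 higher and 1 lower with sh-C. That is 1, 3 and 5 of the 10, where 26.7%, 30.1% and 17.0% of all genes were called. With sh-C the count fell from 5 to 2 or 3 without control 1, 2 or 3, sh-C 2 or sh-C 3. Without the 3 libraries that stood apart, where 46.0%, 47.0% and 42.8% of all genes were called, the count was 3, 5 and 7. Their median log2 changes with all libraries were -0.02, 0.15 and 0.22. VPS72 (YL1), a chaperone of H2A.Z, went in opposite directions. It stood at 57.86, 56.38 and 56.43 CPM with the control, 85.96, 78.16 and 74.87 CPM with sh-A, 39.15, 35.12 and 41.55 CPM with sh-B, and 69.07, 68.8 and 67.78 CPM with sh-C. These groups did not overlap. VPS72 rose by 0.49 with sh-A (SE 0.08, edgeR adjusted p = 0.00095), fell by 0.56 on the log2 scale with sh-B (SE 0.08, adjusted p = 0.00032) and rose by 0.27 with sh-C (SE 0.08, adjusted p = 0.037). The call with sh-C was lost without any 1 of the 6 libraries, at up to 0.11.

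ACTL6A (BAF53A), an actin-related subunit also found in BAF remodelers, rose by 0.57 with sh-B (SE 0.08, edgeR adjusted p = 0.00026) and by 0.38 with sh-C (SE 0.08, adjusted p = 0.0094). Its control libraries held 125.68 to 140.95 CPM, its sh-B libraries 187.52 to 221.25 CPM and its sh-C libraries 173.13 to 177.6 CPM. MRGBP, which binds MORF4L1, fell with sh-B by 0.25 on the log2 scale (SE 0.08, edgeR adjusted p = 0.034), a call lost without control 1, 2 or 3, sh-B 4 or sh-B 5 (up to 0.11). RUVBL2, an AAA+ ATPase that assembles the complex, rose with sh-C by 0.51 (SE 0.09, edgeR adjusted p = 0.0049). JAZF1, a zinc finger subunit, fell with sh-C by 0.53 on the log2 scale (SE 0.13, edgeR adjusted p = 0.019), a call lost without control 2, control 3 or sh-C 2, at up to 0.067.

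Of 18 other MYST acetyltransferases and their partners, 1 was called higher and 2 lower with sh-A, 2 higher and 2 lower with sh-B, and 0 higher and 2 lower with sh-C, at medians of -0.07, -0.04 and -0.05. These shares of 16.7%, 22.2% and 11.1% were each below that of all genes (26.7%, 30.1% and 17.0%). The count with sh-B was 2 without control 1, control 2 or sh-B 4, and that with sh-C was 0 or 1 without control 1, 2 or 3, sh-C 2 or sh-C 3. Without the 3 libraries that stood apart, 7, 7 and 5 of the 18 were called, beside 46.0%, 47.0% and 42.8% of all genes. KAT6A, KAT6B, KAT7 and KAT8, the catalytic members, were called with no hairpin. MSL3, a chromodomain subunit of the KAT8 complex, fell by 0.68 on the log2 scale with sh-A (SE 0.09, edgeR adjusted p = 0.0002) and rose by 0.27 with sh-B (SE 0.09, adjusted p = 0.033). BRPF3, a scaffold of KAT7, rose by 0.47 with sh-A (SE 0.08, edgeR adjusted p = 0.0011) and fell by 0.27 on the log2 scale with sh-B (SE 0.08, adjusted p = 0.021). MSL1, the scaffold of the KAT8 complex, fell with sh-B by 0.37 on the log2 scale (SE 0.10, edgeR adjusted p = 0.013) and with sh-C by 0.44 (SE 0.10, adjusted p = 0.012). The calls with sh-B were lost without some single libraries: for MSL3 without control 1, 2 or 3, sh-B 3 or sh-B 4 (up to 0.12) and for BRPF3 without control 1 or 2, sh-B 4 or sh-B 5 (up to 0.065). The call of MSL1 with sh-C was lost without control 2, sh-C 2 or sh-C 3, at up to 0.06. JADE1, a scaffold of KAT7, fell with sh-A by 0.54 on the log2 scale (SE 0.11, edgeR adjusted p = 0.0036), and MSL2, a ubiquitin ligase of the KAT8 complex, rose with sh-B by 0.36 (SE 0.09, adjusted p = 0.0075). ING4, a PHD finger subunit, fell with sh-C by 0.43 on the log2 scale (SE 0.14, edgeR adjusted p = 0.047), and 5 of the 6 libraries, all but sh-C 1, lost that call when left out, at up to 0.16.

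SAGA shares TRRAP with NuA4/TIP60. Of 20 other SAGA subunits, 4 were called higher and 2 lower with sh-A, 5 higher and 1 lower with sh-B, and 7 higher and 1 lower with sh-C, at medians of 0.08, 0.08 and 0.16. That is 6, 6 and 8 of the 20, beside 26.7%, 30.1% and 17.0% of all genes. The counts fell to 2 or 3 with sh-A without control 1, 2 or 3, sh-A 4 or sh-A 5, to 2 with sh-B without control 2, control 3 or sh-B 5, and to 2 or 3 with sh-C without control 2, control 3, sh-C 2 or sh-C 3. Over all genes, leaving out 1 library gave 2985 to 4892 calls with sh-A (4167 with all 12). It gave 3236 to 4299 with sh-B (4688) and 766 to 2762 with sh-C (2643). Without the 3 libraries that stood apart, 10, 8 and 12 of the 20 were called, beside 46.0%, 47.0% and 42.8% of all genes. TADA1, an adaptor subunit, rose by 0.44 with sh-A (SE 0.10, edgeR adjusted p = 0.0072) and fell by 0.70 on the log2 scale with sh-B (SE 0.11, adjusted p = 0.00046). KAT2B, an acetyltransferase of the complex, rose with sh-B by 0.73 (SE 0.13, edgeR adjusted p = 0.0012), from 13.46 to 16.5 CPM in the controls to 22.36 to 26.93 CPM. KAT2A, its paralog, rose with sh-C by 0.47 (SE 0.10, edgeR adjusted p = 0.0095), and without control 2 its adjusted p was 0.051. SF3B5, which SAGA shares with the spliceosome, rose with sh-C by 0.64 (SE 0.10, edgeR adjusted p = 0.0031), and SGF29, a reader of methylated histone H3, by 0.58 (SE 0.11, adjusted p = 0.0058). SF3B3, also a spliceosome protein, rose with sh-A by 0.44 (SE 0.07, edgeR adjusted p = 0.00064). TAF10, shared with TFIID, fell with sh-A by 0.25 on the log2 scale (SE 0.07, edgeR adjusted p = 0.021) and rose with sh-B by 0.25 (SE 0.07, adjusted p = 0.018). Its calls were lost without control 1, control 3 or sh-A 5 (up to 0.084) and without control 2, control 3 or sh-B 5 (up to 0.079).

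Of 10 regulators and substrates of the TIP60 protein (MDM2, SIRT1, HDAC3, ATF3, USP7, GSK3A, GSK3B, UHRF1, CUL3, ATM), 1 was called higher and 2 lower with sh-A, 2 higher and 0 lower with sh-B, and 0 with sh-C in edgeR. That is 3, 2 and 0 of the 10, beside 26.7%, 30.1% and 17.0% of all genes. With sh-C, 3 had an unadjusted p below 0.05, DESeq2 called 2 (3271 over all genes) and the fit of only the 2 groups called 5 (4862 over all genes). With sh-A the count was 1 without any 1 control library and 6 without sh-A 3. With sh-B it was 0 without any 1 control library, sh-B 4 or sh-B 5, and with sh-C it was 1 without sh-C 1. The counts were 6, 5 and 7 without the 3 libraries that stood apart, beside 46.0%, 47.0% and 42.8% of all genes. SIRT1, a deacetylase that acts on TIP60, was at 37.51, 40.0 and 32.61 CPM with the control and at 20.58, 13.02 and 13.61 CPM with sh-A, without overlap. It fell by 1.22 on the log2 scale (SE 0.16, edgeR adjusted p = 0.00021) and was not called with sh-C, at 0.26 (adjusted p = 0.25), though it passed there without the 3 libraries that stood apart. With sh-B, HDAC3, a histone deacetylase, rose by 0.35 (SE 0.10, edgeR adjusted p = 0.021) and the kinase GSK3B by 0.29 (SE 0.09, adjusted p = 0.023). Without control 1, 2 or 3, sh-B 4 or sh-B 5 these calls were lost (up to 0.078 for HDAC3, 0.098 for GSK3B). The kinase GSK3A rose with sh-A by 0.48 (SE 0.15, edgeR adjusted p = 0.031), lost without any control library (up to 0.11). UHRF1, a reader of hemimethylated DNA, fell with sh-A by 0.24 on the log2 scale (SE 0.08, edgeR adjusted p = 0.042), lost without any library but sh-A 3 (up to 0.13).

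The genes whose 3 log2 changes against control lay nearest to those of KAT5, by Euclidean distance over all 15592 genes, were IFITM1 (0.28), SMIM22 (0.35), CCNG2 (0.43), PCDHGC5 (0.47) and MTMR8 (0.48). This likeness rests on the means of 4 groups. SMIM22, PCDHGC5 and MTMR8 were at 1.13 CPM or below in every library. CCNG2, an unconventional cyclin, stood at 15.95, 19.52 and 19.43 CPM with the control, 9.73, 15.84 and 15.29 CPM with sh-A, 5.04, 9.35 and 9.66 CPM with sh-B, and 6.71, 6.67 and 6.34 CPM with sh-C. It fell by 1.18 on the log2 scale with sh-B (edgeR adjusted p = 0.0022) and by 1.48 with sh-C (adjusted p = 0.0036), while its change with sh-A of -0.43 missed the threshold (adjusted p = 0.18). IFITM1, an interferon-induced membrane protein, was at 9.65 CPM in sh-B 3 and 31.3 and 32.33 CPM in its mates, and passed the test with sh-C alone (-1.81, edgeR adjusted p = 0.043). Leaving out any 1 of the 6 libraries lost that call, at up to 0.14. None of these 5 genes resolved the 4 groups without overlap, as KAT5 did. That trait is not particular to KAT5, since VPS72 had it too, and the genes that share it were not counted.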

How the data were processed

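The 12 libraries of H1975 cells, 3 per group, were made from poly-A RNA with random priming, per the labels' protocols. Per gene and library, the authors' deposited files hold the expected count, the FPKM and a mean transcript length, per the file headers. They also deposited 1 table per hairpin, which gives group means as a normalised signal, a log2 ratio and a probability named PPEE, per the file headers. Bowtie2, HISAT, RSEM and the build hg19 are named per the submitters' processing notes, with versions, roles and strand setting not given in the sources used here. Of the deposited expected counts above 0, 66.1% were whole. Genes are NCBI gene IDs: 15620 were named from the comparison tables, 4734 from RefSeq, and 79 were not named. The number of value columns without a matching sample was 0.

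Expected counts were rounded and tested with edgeR 4.0.16 in R 4.3.3 (quasi-likelihood F-test, TMM scaling, default low-count filter at a minimum count of 10, 1 mean per group over 12 libraries, common biological coefficient of variation 0.145). Adjusted p-values are Benjamini-Hochberg over 15592 genes. SE is the absolute log2 fold change over the square root of F. The script was tested on simulated counts. Alternatives were DESeq2 1.42.0, limma 3.58.1 on log2 FPKM with a pseudocount of 0.1, other scaling, no filter and a stricter filter (minimum count 50), only the groups compared, leaving out each library in turn, leaving out together the 3 that stood apart (sh-A 3, sh-B 3, sh-C 1), and a replicate block. sh-A and sh-B share the library numbers 3, 4 and 5, and same-numbered libraries deviated together from their group means (correlations across genes 0.37, 0.16 and 0.34, all above 0.1). The replicate block was fitted on only the 2 groups compared. It took these numbers as pairs, though the titles state no pairing. Of the other-numbered pairs, sh-A 4 with sh-B 5 (0.21) and sh-A 5 with sh-B 4 (0.29) also deviated together, and the remaining 4 were at -0.4 to -0.23. The correlations thus set the libraries numbered 3 apart from the rest and do not establish that 4 and 5 are pairs.

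The members, the gene lists and the libraries left out together were chosen with earlier results of these data known. Named are all 10 members, the 5 genes nearest to KAT5, and of each list up to 3 called genes with the smallest adjusted p per comparison with the control. VPS72 with sh-C and MSL3 with sh-B were added after their values were seen.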

Additional observations from a re-analysis of the deposited data

Results flagged for a closer look

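For 10 results, 2 hairpins differed from each other in edgeR's quasi-likelihood test of the difference itself, with 3 libraries each. The same test called 47.5% of all genes between sh-B and sh-A, 35.3% between sh-C and sh-A and 27.9% between sh-C and sh-B. Of the 10 genes it called 1 higher and 4 lower, 0 higher and 1 lower, and 3 higher and 1 lower, in that order. KAT5 was lower with sh-B than with sh-A by -0.51 (log2), lower with sh-C than with sh-A by -1.29 and lower with sh-C than with sh-B by -0.78. TRRAP (-0.54), EPC1 (-0.42) and EPC2 (-0.41) were lower with sh-B than with sh-A, and MEAF6 was higher with sh-B than with sh-A (0.42). ING3 (0.56), EPC1 (0.45) and DMAP1 (0.56) were higher with sh-C than with sh-B. Of the differences in partner subunits, those of EPC2 and MEAF6 between sh-B and sh-A kept their call in all 14 alternative analyses.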

How the results depend on the processing

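The call of KAT5 was the same in all 96 alternatives over 7 comparisons. Of 864 alternatives for the other 9 members, 758 gave the same call and direction, 38 lost a call, 40 gained one and 28 reversed the sign. Without the 3 libraries that stood apart, the genes called numbered 7231 with sh-A (4167 with all libraries), 7388 with sh-B (4688), 6725 with sh-C (2643), 7131 with sh-B and sh-C averaged (3888) and 7307 between sh-C and sh-B (4344). The members called were then 5 with sh-B, 4 with sh-C, 2 with the mean and 7 between sh-C and sh-A, where 8205 genes were called. The differences that reversed were DMAP1 with sh-A (-0.11), ING3 with sh-A (-0.14), MEAF6 with sh-B (-0.06), TRRAP with sh-B (0.21), EP400 between sh-C and sh-B (-0.05), and EPC2 and MORF4L1 with the mean (both -0.06). Fitted with only the groups compared, sh-C against control called 4862 genes and 4 members, and sh-B against sh-A called 5804 genes and 3 members. Between sh-C and sh-A, limma on log2 FPKM called 5586 genes and 3 members, and DESeq2 called 5740 genes and 2 members. The limma fit reversed EPC1 between sh-C and sh-A (-0.09) and EPC2 with the mean (-0.02). Dropping the farthest library of each hairpin group lowers the spread by selection. Beyond that, the cause of these changes was not tested.

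With 1 library left out, where the lone or remaining libraries share the spread of all groups, members called ranged from 1 to 3 with sh-A. They ranged from 4 to 6 between sh-B and sh-A, 1 to 5 between sh-C and sh-A and 1 to 4 between sh-C and sh-B. In the same order, 2985 to 4892, 6578 to 8057, 4236 to 6726 and 2918 to 4668 of all genes were called. Genes called ranged from 1989 to 3967 with the mean and from 766 to 2762 with sh-C. Log2 differences that changed sign ranged from -0.05 to 0.21 (BRD8, sh-C minus sh-B), -0.11 to 0.37 (DMAP1, sh-A), -0.01 to 0.18 (EP400, sh-C minus sh-B), -0.03 to 0.19 (EPC1, sh-C minus sh-A), -0.02 to 0.07 (EPC2, the mean), -0.14 to 0.16 (ING3, sh-A), -0.33 to 0.05 (ING3, sh-B minus sh-A), -0.07 to 0.01 (MEAF6, the mean), -0.07 to 0.09 (MEAF6, sh-B), -0.20 to 0.08 (MORF4L1, sh-B minus sh-A), -0.15 to 0.07 (MORF4L1, sh-C) and -0.17 to 0.21 (TRRAP, sh-B).

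With the replicate block, fitted on sh-B and sh-A alone, TRRAP was not called and BRD8 was. The calls of the other members were those of the fit of all 12 libraries. Without the block, the same 2 groups did not call TRRAP (edgeR adjusted p = 0.13), BRD8 (0.24) or EPC1 (0.092). With the block these were at 0.056, 0.038 and 0.0088, so BRD8 and EPC1 gained a call and TRRAP lost none. Control and sh-C share the numbers 1 to 3 but did not deviate together (correlations -0.13, -0.26 and 0.19). The replicate block there was fitted on those 2 groups alone and called 3670 genes. Without the block, the same 2 groups called 4862 genes, and the fit of all 12 libraries called 2643. With the block, KAT5 and ING3 (edgeR adjusted p = 0.011) were called. Without it, the same 2 groups called DMAP1 and EPC1 as well, whereas the fit of all 12 libraries called KAT5 alone. Depth limits DMAP1 most, at 124 to 292 counts.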
